A study of Mus musculus with 6 samples.

Results

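The matrix metalloproteases (MMPs), the ADAMTS proteases, the ADAMTS-like proteins and the tissue inhibitors of metalloproteases (TIMPs) were examined in bone marrow of Cbx2-/- mice; Cbx2 encodes a chromodomain protein of a Polycomb repressive complex. The members were all genes of the expression table whose symbol begins with Mmp, Adamts, Adamtsl or Timp followed by a digit, which gave 51 of 22838 genes: 23 MMP, 19 ADAMTS, 5 ADAMTSL and 4 TIMP genes. Marrow of the tibia and femur had been taken from 3 Cbx2-/- mice and 3 wild-type mice of mixed 129/C57BL/6 strain at 3 weeks of age, with a mean body weight of 4.0 g in the Cbx2-/- group and 12.3 g in the wild-type group, per the labels. The labels describe neither the Cbx2 allele nor the sex of the animals. The 6 poly(A) RNA libraries were 3 per genotype, so p-values measure the spread between these animals. Levels are given as FPKM (fragments scaled to transcript length and to the library's mapped total), a scale on which genes of different length can be compared.

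MMPs are zinc endopeptidases that are made as inactive proenzymes and, between them, cut fibrillar collagen, gelatin and most other matrix proteins. ADAMTS proteases carry thrombospondin motifs and act on proteoglycans, procollagens, von Willebrand factor and microfibrils, while ADAMTS-like proteins share those motifs but lack a protease domain. TIMPs bind the active site of the proteases and are expressed by many stromal cells. In bone and marrow these genes are known from several cell types: Mmp8, Mmp9 and Mmp25 from neutrophils, Mmp9 and Mmp14 from osteoclasts, Mmp13 from osteoblasts and hypertrophic chondrocytes, and Mmp2, Mmp14 and the TIMPs from stroma.

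Cbx2 transcripts were still read in the Cbx2-/- libraries, at 2.11, 1.87 and 1.88 FPKM in Cbx2-/- replicates 1 to 3, against 2.9, 3.83 and 2.75 FPKM in wild-type replicates 1 to 3; the groups did not overlap, and the difference of -0.49 ± 0.15 (log2, SE, limma adjusted p = 0.0558) did not pass the threshold of 0.05. Without a description of the allele, this gene-level value cannot check the genotype labels. Summed FPKM per library was 599601 to 741192 in Cbx2-/- and 662832 to 718714 in wild-type marrow, and read depths, estimated from the steps between low values, were within 0.917 to 1.19 times that of wild-type replicate 1. Cbx2-/- replicates 1 and 2 carried skeletal muscle transcripts: 9 muscle markers summed to 432 and 493 FPKM there, to 14.7 FPKM in Cbx2-/- replicate 3 and to 24.3 to 35.8 FPKM in wild-type libraries. Values with and without these libraries are given below where they bear on a result.

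Of the 51 genes, 27 reached 1 FPKM in 3 or more libraries and were tested: 12 MMP, 8 ADAMTS, 3 ADAMTSL and 4 TIMP genes. In Cbx2-/- marrow 5 rose (Timp4, Adamtsl3, Adamtsl4, Mmp25 and Mmp9) and 4 fell (Timp1, Mmp2, Mmp16 and Adamts7), and 18 did not pass limma's adjusted p of 0.05. These 9 calls are 33.3% of the tested members, where 17.1% of all 12006 tested genes were called, 8.8% higher and 8.31% lower. The groups of 3 libraries did not overlap in 16 of the 27 members, where this held for 39.6% of all tested genes. The median difference was 0.25 over the 27 members and 0.016 over all tested genes (log2(FPKM + 1) scale). Adamtsl3 and Adamtsl4 passed the filter on low values only through Cbx2-/- libraries, and Mmp16 and Adamts7 only through wild-type libraries, so these 4 had to differ in the direction they took and lend the counts no support.

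The counts moved with single libraries. Without Cbx2-/- replicate 1, 3 members rose and 3 fell, without replicate 2, 7 and 4, and without replicate 3, 7 and 7. Without wild-type replicate 1, 2 or 3, the numbers were 3 and 2, 2 and 2, and 2 and 3. With the muscle-bearing Cbx2-/- replicates 1 and 2 both left out, 11 rose and 3 fell, in a fit that assumes that the lone Cbx2-/- library varies like the wild-type libraries. The share of all tested genes called in the same fits moved too: it was 9.11, 16.9 and 31.6% without Cbx2-/- replicate 1, 2 or 3, 7.07, 7.24 and 7.57% without wild-type replicate 1, 2 or 3, and 39.7% with Cbx2-/- replicates 1 and 2 both left out. Timp4 and Timp1 were called in every fit that left out a single library. Mmp16 and Adamtsl3 were too, but the filter on low values had fixed their direction in these fits.

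**Figure D1:**
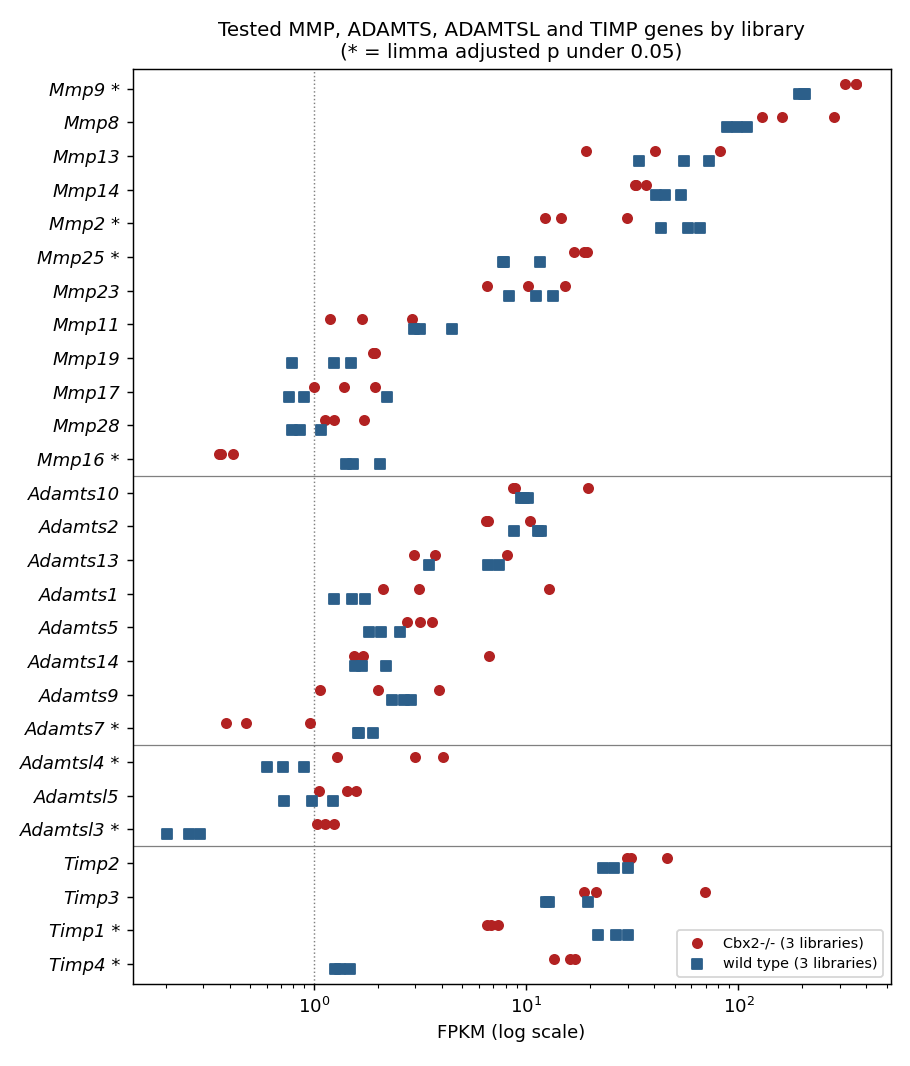
FPKM on a log axis of the 27 tested genes, with 1 point per library (circles, Cbx2-/-; squares, wild type), grouped as MMP, ADAMTS, ADAMTSL and TIMP genes and ordered by mean level. An asterisk marks the 9 genes with a limma adjusted p under 0.05, and the dotted line marks 1 FPKM; Mmp9 was highest, Timp4 and Timp1 moved apart in opposite directions, and Mmp13 overlapped.

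Of the 4 TIMP genes, which encode the inhibitors, 1 rose and 1 fell (17.1% of all tested genes were called). Timp4, whose product is known from heart and adipose tissue, was 11.4-fold higher in Cbx2-/- marrow. Timp1, a widely induced inhibitor that also acts as a growth factor, was 3.78-fold lower. Timp2, whose product takes part in the activation of pro-MMP2 by MMP14, and Timp3, a matrix-bound inhibitor that also blocks ADAMTS proteases, did not pass.

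Timp4 (chromosome 6, 115241892 to 115252205, minus strand, GENCODE vM21, GRCm38) was at 16.9, 13.5 and 16 FPKM in Cbx2-/- replicates 1 to 3, against 1.33, 1.47 and 1.26 FPKM in wild-type replicates 1 to 3. All Cbx2-/- libraries stood far above all wild-type libraries, with a difference of 2.80 ± 0.13 (log2, SE, limma adjusted p = 0.000104). Timp1 (chromosome X, 20870166 to 20874735, plus strand) was at 6.84, 7.33 and 6.55 FPKM in Cbx2-/- replicates 1 to 3, against 21.8, 30 and 26.5 FPKM in wild-type replicates 1 to 3. Here all Cbx2-/- libraries stood below all wild-type libraries and close to each other, with a difference of -1.77 ± 0.15 (log2, SE, limma adjusted p = 0.000652). As a ratio within each library, Timp4 over Timp1 was 2.48, 1.84 and 2.44 in Cbx2-/- and 0.061, 0.049 and 0.0474 in wild-type libraries.

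Timp2 (chromosome 11, 118301069 to 118355740, minus strand) was at 31.3, 29.7 and 45.8 FPKM in Cbx2-/- replicates 1 to 3, against 26, 30.3 and 23 FPKM in wild-type replicates 1 to 3, with overlapping groups and a difference of 0.40 ± 0.20 (log2, SE, limma adjusted p = 0.217). Timp3 (chromosome 10, 86300372 to 86349506, plus strand) was at 21.3, 18.8 and 69.8 FPKM in Cbx2-/- replicates 1 to 3, against 19.5, 12.8 and 12.3 FPKM in wild-type replicates 1 to 3, with a difference of 1.02 ± 0.46 (log2, SE, limma adjusted p = 0.17). In both genes Cbx2-/- replicate 3 was the highest of the 6 libraries. With Cbx2-/- replicates 1 and 2 left out, limma's adjusted p was 0.0125 for Timp2 and 0.000685 for Timp3, and without replicate 3 it was 0.272 and 0.124. Timp1 took 8.96, 10.6 and 4.74% of the summed TIMP FPKM in Cbx2-/- replicates 1 to 3 and 31.8, 40.3 and 42% in wild-type replicates 1 to 3. Timp4 took 22.2, 19.4 and 11.6% in Cbx2-/- and 1.94, 1.97 and 1.99% in wild-type libraries. The summed TIMP FPKM itself was 76.3, 69.3 and 138 in Cbx2-/- and 68.6, 74.6 and 63.1 in wild-type libraries, and its groups overlapped.

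**Figure D2:**
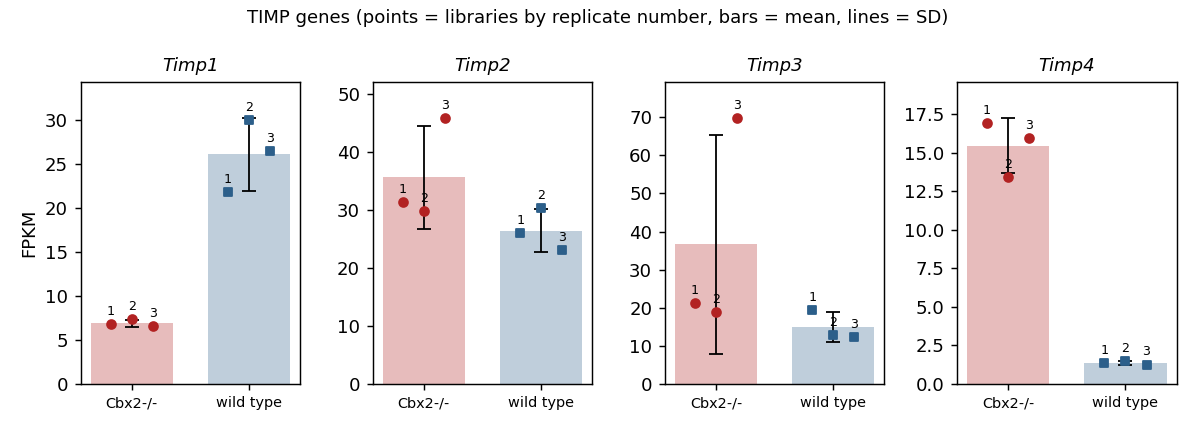
FPKM of the 4 TIMP genes, each panel with its own axis from 0. Points are libraries with their replicate number, bars are means and lines are SD over 3 libraries; Timp1 was lower and Timp4 higher in every Cbx2-/- library than in any wild-type library, and Timp3 was highest in Cbx2-/- replicate 3.

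Timp1, Timp3 and Timp4 each lie inside a synapsin gene on the opposite strand (Syn1, Syn3 and Syn2), and Timp4 also inside the gene model Gm17482. How the authors' quantification treated strand is unknown here, and without strand the reads of a gene and its antisense partner cannot be told apart. The synapsins were low and were not tested: Syn2 was at 0.32, 0.231 and 0.983 FPKM in Cbx2-/- replicates 1 to 3, against 0.167, 0.0752 and 0.0899 FPKM in wild-type replicates 1 to 3. Syn1 was at 0.205, 0.169 and 0.239 FPKM in Cbx2-/- replicates 1 to 3, against 0.282, 0.396 and 0.26 FPKM in wild-type replicates 1 to 3. Syn3 was at 0.536, 0.591 and 0.516 FPKM in Cbx2-/- replicates 1 to 3, against 1, 0.947 and 0.982 FPKM in wild-type replicates 1 to 3. Syn1 and Syn3 were lower in all Cbx2-/- libraries than in all wild-type libraries, and Syn2 was higher. Each synapsin stayed at or below about 1 FPKM, under the level of its TIMP partner in every library.

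The start regions of Timp4 and Timp1 are shown because Timp4 had the largest positive and Timp1 the largest negative difference among the called members on the log2(FPKM + 1) scale; as a ratio of means, Mmp16 fell more, 4.39-fold lower. RefSeq start regions (GRCm38.p6, 250 bases before to 50 bases after the start, 5′ to 3′) were matched by symbol for 36 of the 51 genes. Capitals mark matches, on either strand, to a TATA box (TATAAA), an AP-1 site (TGAGTCA), a Runx core site (AACCACA) or a GC box (GGGCGG), and no matches overlapped in the sequences printed here.
Timp4 (chr6:115252156-115252455, minus strand): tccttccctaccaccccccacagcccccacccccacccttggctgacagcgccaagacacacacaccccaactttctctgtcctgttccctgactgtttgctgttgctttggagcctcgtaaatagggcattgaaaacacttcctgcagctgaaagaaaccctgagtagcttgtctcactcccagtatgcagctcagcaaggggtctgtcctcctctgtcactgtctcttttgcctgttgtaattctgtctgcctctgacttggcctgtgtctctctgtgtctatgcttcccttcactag
Timp1 (chrX:20869916-20870215, plus strand): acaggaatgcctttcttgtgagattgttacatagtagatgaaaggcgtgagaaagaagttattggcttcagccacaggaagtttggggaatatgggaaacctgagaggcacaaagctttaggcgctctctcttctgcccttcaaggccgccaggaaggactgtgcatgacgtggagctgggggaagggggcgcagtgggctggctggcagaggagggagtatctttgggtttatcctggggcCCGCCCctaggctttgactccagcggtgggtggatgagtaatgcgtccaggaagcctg
Timp4 held none of these letters and 2 CG pairs, while Timp1 held a GC box beginning 8 bases before the start and 8 CG pairs. Over the 32851 start regions of all genes the median was 7 CG pairs, and 35.7% held the GC box letters.

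Markers of fat cells were higher, as Timp4 was. The 8 adipocyte markers summed to 2045 to 2644 FPKM in Cbx2-/- and 209 to 413 FPKM in wild-type marrow, and 6 of the 7 tested rose. That sum is mostly Fabp4. Adipoq, the tested marker that did not pass, overlapped between the groups (limma adjusted p = 0.347). It was at 54.8, 94.2 and 52.8 FPKM in Cbx2-/- replicates 1 to 3, against 39.5, 63.8 and 45.5 FPKM in wild-type replicates 1 to 3. Timp4 was at 16.9, 13.5 and 16 FPKM in Cbx2-/- replicates 1 to 3, where the muscle markers summed to 432, 493 and 14.7 FPKM. The part of muscle in the level of Timp4 was not tested. Marrow stromal and endothelial markers were higher too: the 10 stromal markers summed to 659.7 to 1172 FPKM in Cbx2-/- and 431 to 579 FPKM in wild-type marrow, with 5 of 10 higher and none lower, and the 9 endothelial markers to 127 to 169.9 FPKM in Cbx2-/- and 78.6 to 86 FPKM in wild-type marrow, with 5 of 9 higher and none lower. Without wild-type replicate 1 or 3, 0 stromal and 4 endothelial markers were called higher, and without Cbx2-/- replicate 1, 3 and 4. Markers of osteoblasts, fibroblasts, early B cells and erythroid cells were lower, as Timp1 was. All 9 early B cell markers and 6 of 7 erythroid markers in the table fell, with sums of 106 to 201 FPKM in Cbx2-/- and 973 to 1210.4 FPKM in wild-type marrow for the B cell list and 1128 to 2008 FPKM in Cbx2-/- and 2682 to 3251 FPKM in wild-type marrow for the erythroid list. The 12 osteoblast markers summed to 1054 to 1914 FPKM in Cbx2-/- and 9578 to 15991 FPKM in wild-type marrow, with 7 of 12 lower, and the 10 fibroblast and matrix markers to 121 to 191 FPKM in Cbx2-/- and 370.5 to 599 FPKM in wild-type marrow, with 6 of 9 tested lower and 1 higher. Rag1 and Fbln1, which fell, passed the filter on low values only through wild-type libraries, and Adig, which rose, only through Cbx2-/- libraries. These markers had to differ in the direction they took. For comparison with these marker counts, 8.8% of all tested genes were called higher and 8.31% lower. No marker of these lists was at 0 in every library. In bulk marrow, fewer cells of a type and less RNA per cell cannot be told apart, and the part of these cells in the TIMP differences was not tested.

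The MMP genes linked to neutrophils were higher in every Cbx2-/- library than in any wild-type library. Of 3 genes listed for this source, Mmp9 and Mmp25 rose and Mmp8 did not pass (17.1% of all tested genes were called). Mmp9 (chromosome 2, 164940780 to 164955850, plus strand), gelatinase B, which cuts denatured collagen and is stored in neutrophil granules, was the most abundant member, at 358, 317 and 358 FPKM in Cbx2-/- replicates 1 to 3, against 203, 207 and 193 FPKM in wild-type replicates 1 to 3. It was 1.71-fold higher, a difference of 0.77 ± 0.17 (log2, SE, limma adjusted p = 0.0192). The call of Mmp9 was lost without Cbx2-/- replicate 1 (limma adjusted p = 0.079) and without wild-type replicate 1, 2 or 3 (0.0944, 0.084 and 0.0931), while its difference stayed between 0.74 and 0.79 in these fits.

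Mmp25 (chromosome 17, 23628311 to 23645277, minus strand), a membrane-anchored protease of leukocytes, was at 18.7, 16.8 and 19.3 FPKM in Cbx2-/- replicates 1 to 3, against 11.6, 7.8 and 7.88 FPKM in wild-type replicates 1 to 3, 2-fold higher with a difference of 0.95 ± 0.17 (log2, SE, limma adjusted p = 0.0102). It lost its call without wild-type replicate 2 or 3 (limma adjusted p = 0.0538 and 0.0534). Mmp8 (chromosome 9, 7558456 to 7568485, plus strand), the neutrophil collagenase, was at 161, 129.7 and 281 FPKM in Cbx2-/- replicates 1 to 3, against 98.3, 109 and 88.5 FPKM in wild-type replicates 1 to 3. Cbx2-/- replicate 3 was far above the rest, and the difference of 0.87 ± 0.29 (log2, SE, limma adjusted p = 0.0752) did not pass. Without that library, or without Cbx2-/- replicate 2, Mmp8 passed (limma adjusted p = 0.0225 and 0.0327), as it did with array weights and with Cbx2-/- replicates 1 and 2 left out (0.00194 and 0.000684). Mmp8 and Mmp9 together took 81.5, 80.8 and 77.2% of the summed MMP FPKM in Cbx2-/- libraries and 64.4, 60.6 and 60.2% in wild-type libraries, with no overlap.

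The 14 neutrophil markers summed to 60057 to 90059 FPKM in Cbx2-/- and 40694 to 45649.9 FPKM in wild-type marrow, of which 4 rose and none fell; without Cbx2-/- replicate 1, 2 or 3 the number that rose was 3, 4 and 13, and without wild-type replicate 1, 2 or 3 it was 2, 1 and 1. Within the Cbx2-/- group their sum was lowest in replicate 3, at 60057 FPKM, against 84049.9 and 90059 FPKM in replicates 1 and 2. That sum is mostly S100a8 and S100a9. Only Chil3 and Cxcr2 of the list were highest of the Cbx2-/- libraries in replicate 3, as Mmp8 was. Chil3 was at 2276, 1551 and 3187 FPKM in Cbx2-/- replicates 1 to 3, against 683, 688 and 698 FPKM in wild-type replicates 1 to 3. Cxcr2 was at 34.5, 36.6 and 52.6 FPKM in Cbx2-/- replicates 1 to 3, against 23.4, 24.4 and 17.9 FPKM in wild-type replicates 1 to 3. In replicate 3 Retnlg lay between replicates 1 and 2, and all other markers of the list were at their lowest Cbx2-/- value. Mmp9 as a percentage of the summed neutrophil markers was 0.426, 0.352 and 0.596% in Cbx2-/- and 0.466, 0.508 and 0.423% in wild-type libraries, and these ranges overlapped. The 12 osteoclast markers, which mark the other known source of Mmp9, summed to 458 to 739 FPKM in Cbx2-/- and 733 to 849 FPKM in wild-type marrow; 10 were tested, of which 1 fell and none rose, and the sum in Cbx2-/- replicate 3 overlapped the wild-type range. For comparison with the neutrophil and osteoclast lists, 8.8% of all tested genes were called higher and 8.31% lower. The number of osteoclast markers that fell was 3 without Cbx2-/- replicate 3 and 0 without any other single library. No marker of either list was at 0 in every library, and the part of neutrophils or osteoclasts in these differences was not tested.

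**Figure D3:**
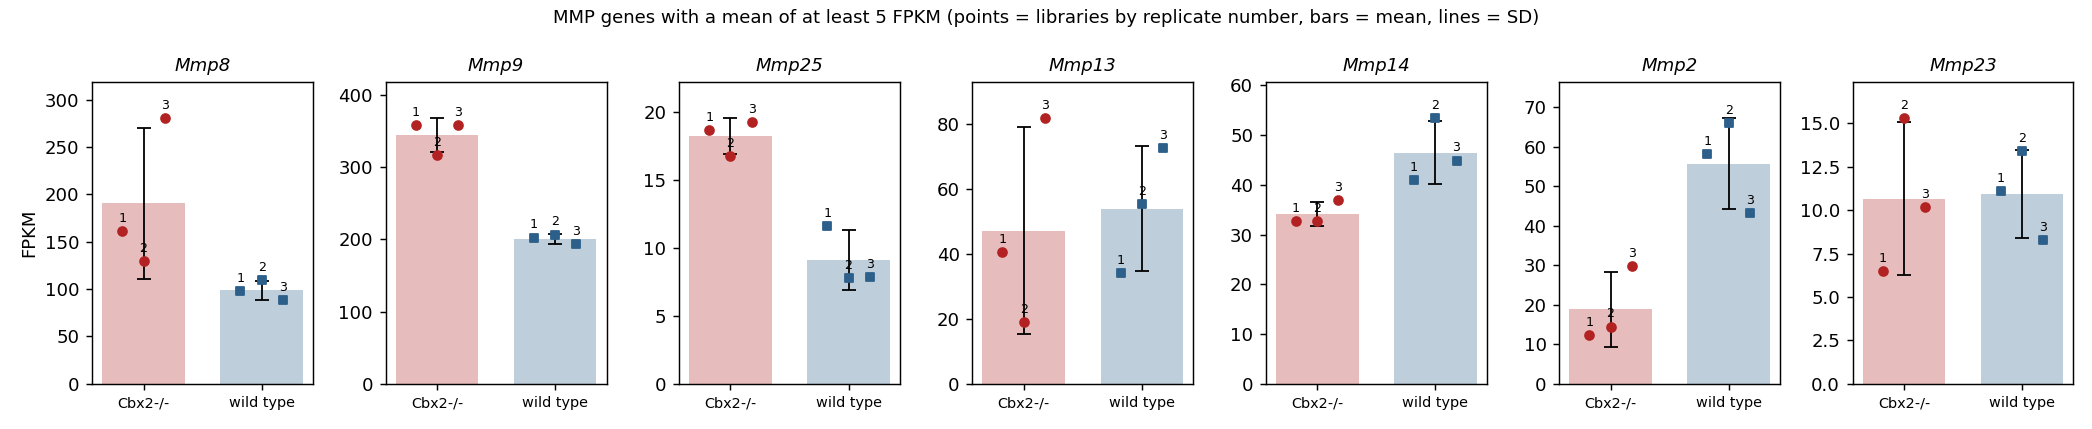
FPKM of the 7 MMP genes with a mean of at least 5 FPKM, each panel with its own axis from 0. Points are libraries with their replicate number, bars are means and lines are SD over 3 libraries; Mmp8, Mmp9 and Mmp25 were higher and Mmp14 and Mmp2 lower in every Cbx2-/- library than in any wild-type library, while Mmp13 and Mmp23 overlapped.

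Mmp2, of the stroma and fibroblast list, fell, and so did Mmp16, of the osteoblast and chondrocyte list. Mmp2 (chromosome 8, 92827291 to 92853420, plus strand), gelatinase A, which fibroblasts and osteoblasts secrete and MMP14 activates, was at 12.3, 14.5 and 29.8 FPKM in Cbx2-/- replicates 1 to 3, against 58.1, 65.9 and 43.2 FPKM in wild-type replicates 1 to 3, 2.95-fold lower with a difference of -1.59 ± 0.32 (log2, SE, limma adjusted p = 0.014). All Cbx2-/- libraries lay below all wild-type libraries, and Cbx2-/- replicate 3 lay closest to them. The call was lost without wild-type replicate 1 or 2 (limma adjusted p = 0.0619 and 0.0641). With Mmp9 higher and Mmp2 lower, the ratio of Mmp9 to Mmp2 was 29.1, 21.8 and 12 in Cbx2-/- and 3.49, 3.14 and 4.47 in wild-type libraries.

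Mmp16 (chromosome 4, 17852893 to 18119145, plus strand), a membrane-type protease that can activate pro-MMP2, was at 0.357, 0.416 and 0.364 FPKM in Cbx2-/- replicates 1 to 3, against 1.53, 2.05 and 1.41 FPKM in wild-type replicates 1 to 3, 4.39-fold lower with a difference of -0.94 ± 0.15 (log2, SE, limma adjusted p = 0.00597). The groups were far apart, at a low level. Mmp16 passed the filter on low values only through wild-type libraries, which fixed the direction of this separation. Mmp14 (chromosome 14, 54431612 to 54445364, plus strand), the main activator of pro-MMP2 and a collagenase at the cell surface, was at 32.8, 32.7 and 36.9 FPKM in Cbx2-/- replicates 1 to 3, against 41, 53.4 and 44.9 FPKM in wild-type replicates 1 to 3. Its groups did not overlap either, but the difference of -0.43 ± 0.16 (log2, SE, limma adjusted p = 0.103) did not pass. Among the alternatives it passed without Cbx2-/- replicate 3 and with array weights, in which limma weights the libraries (adjusted p = 0.028 and 0.00512). Mmp11, a stromelysin-like protease of fibroblasts, averaged 1.92 ± 0.87 FPKM in Cbx2-/- and 3.53 ± 0.839 FPKM in wild-type marrow (SD, n = 3 each), with a limma adjusted p = 0.0925, and it passed in the same alternatives (0.00835 and 0.00164). Mmp23, a membrane-bound MMP, was at 6.52, 15.3 and 10.2 FPKM in Cbx2-/- replicates 1 to 3, against 11.1, 13.4 and 8.31 FPKM in wild-type replicates 1 to 3, and its groups overlapped.

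Mmp13 (chromosome 9, 7272514 to 7283331, plus strand), collagenase 3, the main collagen-cutting enzyme of osteoblasts and hypertrophic cartilage, was at 40.5, 19.1 and 81.9 FPKM in Cbx2-/- replicates 1 to 3, against 34, 55.3 and 72.5 FPKM in wild-type replicates 1 to 3. The Cbx2-/- libraries held both the lowest and the highest value, and the difference of -0.36 ± 0.49 (log2, SE, limma adjusted p = 0.682) did not pass and turned positive without Cbx2-/- replicate 2 (0.16). The summed osteoblast markers did not overlap between the groups over the same libraries; most of that sum was Col1a1, Col1a2 and Bglap, the last a gene of osteocalcin. Of the 12 osteoblast markers, 9 did not overlap, and Dmp1, Phex and Sost, which are known from osteocytes, did. Among all tested genes, 39.6% did not overlap. Dmp1 was at 21.4, 11.4 and 74.6 FPKM in Cbx2-/- replicates 1 to 3, against 38.2, 51.2 and 39 FPKM in wild-type replicates 1 to 3. Sost was at 9.31, 8.95 and 49.8 FPKM in Cbx2-/- replicates 1 to 3, against 33.5, 20.8 and 10.1 FPKM in wild-type replicates 1 to 3. In Cbx2-/- replicate 3 Dmp1 and Sost were above their wild-type range, as Mmp13 was, and in Cbx2-/- replicates 1 and 2 below it, where Mmp13 was inside its range in replicate 1 and below it in replicate 2. Phex was at 2.75, 2.01 and 6.07 FPKM in Cbx2-/- replicates 1 to 3, against 7.37, 8.14 and 4.53 FPKM in wild-type replicates 1 to 3. It lay inside its wild-type range in Cbx2-/- replicate 3. No osteoblast marker besides Dmp1 and Sost was above its wild-type range in that library. The summed chondrocyte markers, mostly Col11a1 and Col2a1, were 8.93 to 11 FPKM in Cbx2-/- and 80.4 to 127 FPKM in wild-type marrow; of 3 tested markers 2 fell, and Comp overlapped. Among all tested genes, 8.31% were called lower. The part of osteoblasts, osteocytes and chondrocytes in the level of Mmp13 was not tested.

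Mmp8 and Mmp13 lie in 1 cluster on chromosome 9 (7272514 to 7699585, about 427 kb) that holds 10 members in the order Mmp13, Mmp12, Mmp1b, Mmp3, Mmp1a, Mmp10, Mmp8, Mmp27, Mmp20 and Mmp7. Only these 2 of the 10 passed the filter on low values. Of the others, Mmp27 reached 1.04 FPKM, in Cbx2-/- replicate 3, and the rest stayed under 0.1 FPKM in every library, with Mmp1b and Mmp20 at 0. Mmp1a and Mmp1b are paralogs, and Mmp7 and Mmp20 share a locus in the table, so reads of these pairs may be hard to assign. The macrophage elastase gene Mmp12 reached only 0.0386 FPKM. The start regions of Mmp8 and Mmp13, and that of Mmp25 for comparison with the neutrophil collagenase, are shown with the same marks.
Mmp8 (chr9:7558179-7558478, plus strand): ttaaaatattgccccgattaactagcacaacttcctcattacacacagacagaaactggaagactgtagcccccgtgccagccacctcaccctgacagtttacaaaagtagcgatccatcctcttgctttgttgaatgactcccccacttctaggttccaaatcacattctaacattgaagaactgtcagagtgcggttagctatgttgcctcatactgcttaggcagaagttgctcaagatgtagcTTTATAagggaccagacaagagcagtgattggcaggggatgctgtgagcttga
Mmp13 (chr9:7272264-7272563, plus strand): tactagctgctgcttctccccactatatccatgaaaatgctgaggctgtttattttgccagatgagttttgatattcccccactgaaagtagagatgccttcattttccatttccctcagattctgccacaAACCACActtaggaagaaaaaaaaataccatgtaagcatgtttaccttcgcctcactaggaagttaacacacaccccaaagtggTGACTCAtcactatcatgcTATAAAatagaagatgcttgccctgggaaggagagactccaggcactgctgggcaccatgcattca
Mmp25 (chr17:23645220-23645519, minus strand): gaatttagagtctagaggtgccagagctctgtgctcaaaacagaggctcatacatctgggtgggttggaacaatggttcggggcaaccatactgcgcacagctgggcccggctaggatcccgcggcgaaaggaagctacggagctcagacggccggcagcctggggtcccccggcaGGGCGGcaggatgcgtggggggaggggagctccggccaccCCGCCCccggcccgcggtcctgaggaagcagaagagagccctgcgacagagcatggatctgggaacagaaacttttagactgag
Mmp13 held a Runx core site, an AP-1 site and a TATA box, beginning 119, 35 and 16 bases before the start. Mmp8 held only the TATA box letters, which began 3 bases before its RefSeq start and ran past it. The GENCODE start of Mmp8, at 7558456, lies further downstream. Mmp25 held 2 GC boxes, 74 and 34 bases before the start. The AP-1 letters were found in 7 of the 10 genes of the cluster and in 0 of the other 26 matched members, against 5.2% of all start regions. The TATA box letters were found in 9 of 10 cluster genes and 3 of 26 others, against 13.6% of all start regions, and the GC box in 0 of 10 and 22 of 26. Mmp25 had 18 CG pairs, Mmp8 had 4 and Mmp13 had 1. These matches describe letters and not binding.

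The remaining tested MMP genes were low and did not pass. Mmp19, known from macrophages and vessels, averaged 1.91 ± 0.0194 FPKM in Cbx2-/- and 1.18 ± 0.355 FPKM in wild-type marrow (SD, n = 3 each), with groups that did not overlap and a limma adjusted p = 0.1. Mmp28, epilysin, averaged 1.36 ± 0.31 FPKM in Cbx2-/- and 0.908 ± 0.154 FPKM in wild-type marrow (SD, n = 3 each, limma adjusted p = 0.22). Mmp17, a lipid-anchored protease, averaged 1.44 ± 0.47 FPKM in Cbx2-/- and 1.28 ± 0.793 FPKM in wild-type marrow (SD, n = 3 each, limma adjusted p = 0.784), and its groups overlapped.

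Of 8 tested ADAMTS genes, 1 passed (12.5%, where 17.1% of all tested genes were called). Adamts7 (chromosome 9, 90163069 to 90208071, plus strand), which encodes a protease of cartilage oligomeric matrix protein, was at 0.386, 0.476 and 0.956 FPKM in Cbx2-/- replicates 1 to 3, against 1.63, 1.61 and 1.89 FPKM in wild-type replicates 1 to 3, 2.82-fold lower with a difference of -0.77 ± 0.17 (log2, SE, limma adjusted p = 0.02). All Cbx2-/- values were under 1 FPKM and below the wild-type values. The filter on low values, which Adamts7 passed only through wild-type libraries, had fixed this separation. The gene overlaps Tbc1d2b on the opposite strand, as Mmp11 does Chchd10 and Mmp19 does Tmem198b, and reads of these pairs may not have been separated. The call was lost without Cbx2-/- replicate 1 (limma adjusted p = 0.0734), without wild-type replicate 1, 2 or 3 (0.07, 0.0673 and 0.0828) and with Cbx2-/- replicates 1 and 2 both left out (0.0763).

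The procollagen N-proteinase gene Adamts2, whose product trims fibrillar procollagens, was at 6.57, 6.48 and 10.4 FPKM in Cbx2-/- replicates 1 to 3, against 11.4, 11.7 and 8.79 FPKM in wild-type replicates 1 to 3. Cbx2-/- replicates 1 and 2 lay below the wild-type libraries and replicate 3 among them, and the difference of -0.42 ± 0.20 (log2, SE, limma adjusted p = 0.192) did not pass. Among the alternatives it passed without replicate 3 and with array weights (limma adjusted p = 0.0139 and 0.0018). Adamts14, of the same subgroup, averaged 3.32 ± 2.93 FPKM in Cbx2-/- and 1.81 ± 0.331 FPKM in wild-type marrow (SD, n = 3 each, limma adjusted p = 0.514). Adamts10, a protease of fibrillin microfibrils, was at 8.68, 8.85 and 19.5 FPKM in Cbx2-/- replicates 1 to 3, against 9.43, 9.73 and 10.2 FPKM in wild-type replicates 1 to 3, with a difference of 0.21 ± 0.28 (log2, SE, limma adjusted p = 0.664). Cbx2-/- replicate 3 alone lay above the others, and the difference was -0.14 without it. Adamts13, which cuts von Willebrand factor, was at 3.72, 2.96 and 8.09 FPKM in Cbx2-/- replicates 1 to 3, against 3.49, 6.6 and 7.43 FPKM in wild-type replicates 1 to 3 and its groups overlapped, with a difference of -0.25 ± 0.35 (log2, SE, limma adjusted p = 0.678).

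The proteoglycan-cutting ADAMTS genes were low, and none passed in the fit with all libraries. Adamts1 averaged 6 ± 5.86 FPKM in Cbx2-/- and 1.5 ± 0.252 FPKM in wild-type marrow (SD, n = 3 each), with a difference of 1.17 ± 0.49 (log2, SE, limma adjusted p = 0.139). Its groups did not overlap, and the large SD came from Cbx2-/- replicate 3, at 12.7 FPKM, against 3.13 and 2.12 FPKM in replicates 1 and 2. Without replicate 3 Adamts1 passed, with a difference of 0.53 (limma adjusted p = 0.0437), as it did without replicate 2, with array weights and with replicates 1 and 2 left out (adjusted p = 0.0461, 0.00789 and 0.000178). Adamts5, the main cartilage aggrecanase of mice, averaged 3.15 ± 0.423 FPKM in Cbx2-/- and 2.14 ± 0.364 FPKM in wild-type marrow (SD, n = 3 each, limma adjusted p = 0.101), again with groups that did not overlap. Adamts9 averaged 2.31 ± 1.42 FPKM in Cbx2-/- and 2.62 ± 0.271 FPKM in wild-type marrow (SD, n = 3 each, limma adjusted p = 0.663), and its groups overlapped.

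Among the ADAMTS-like genes, Adamtsl3 and Adamtsl4 rose, at low levels. Adamtsl3 (chromosome 7, 82335694 to 82614450, plus strand), a secreted matrix protein gene, was at 1.12, 1.25 and 1.03 FPKM in Cbx2-/- replicates 1 to 3, against 0.292, 0.203 and 0.258 FPKM in wild-type replicates 1 to 3, 4.52-fold higher with a difference of 0.77 ± 0.14 (log2, SE, limma adjusted p = 0.0092). Adamtsl4 (chromosome 3, 95676201 to 95687917, minus strand), whose product binds fibrillin microfibrils, was at 3, 1.28 and 4.03 FPKM in Cbx2-/- replicates 1 to 3, against 0.895, 0.711 and 0.597 FPKM in wild-type replicates 1 to 3, 3.77-fold higher with a difference of 1.05 ± 0.28 (log2, SE, limma adjusted p = 0.0374). In both genes every Cbx2-/- library stood above every wild-type library. The filter on low values, which both passed only through Cbx2-/- libraries, had fixed this separation. Adamtsl4 lost its call without Cbx2-/- replicate 1 (limma adjusted p = 0.114), without wild-type replicate 1, 2 or 3 (0.0956, 0.115 and 0.126), with libraries scaled to equal summed FPKM (0.0536) and with no filter on low values (0.0745). Adamtsl5 averaged 1.36 ± 0.272 FPKM in Cbx2-/- and 0.978 ± 0.256 FPKM in wild-type marrow (SD, n = 3 each, limma adjusted p = 0.33) and overlapped.

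**Figure D4:**
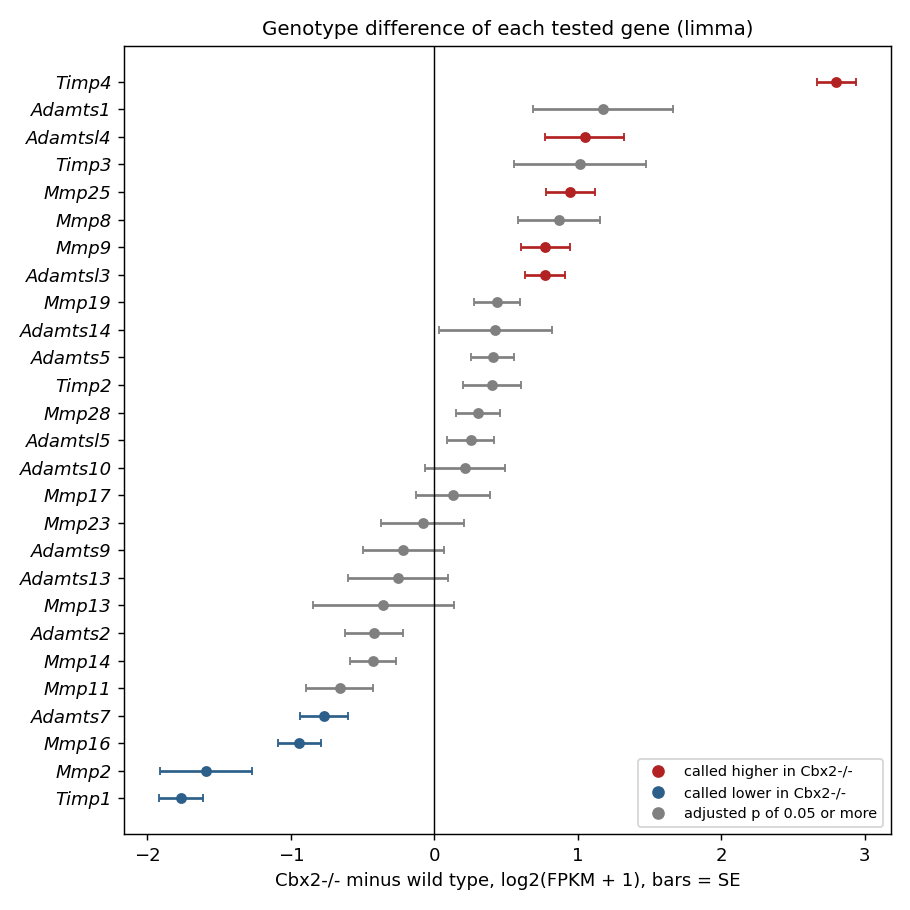
Difference between Cbx2-/- and wild-type marrow on the log2(FPKM + 1) scale for the 27 tested genes, with points coloured by limma call (adjusted p under 0.05) and bars for the SE. The 5 genes called higher and the 4 called lower are not always those with the largest difference: Adamts1 and Timp3 had differences above 1 with wide errors and did not pass.

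The other 24 members were not tested, and 4 of them were listed at 0 in every library (Mmp1b, Mmp20, Adamts16 and Adamts19). The highest value in any library was 0.0328 FPKM for the collagenase gene Mmp1a. Among the stromelysins and matrilysin it was 0.0909 FPKM for Mmp3, 0.097 FPKM for Mmp10 and 0.0933 FPKM for Mmp7. Among the membrane-type MMPs it was 1.09 FPKM for Mmp15 and 0.0271 FPKM for Mmp24, and Mmp21 reached 0.247 FPKM.

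Among the untested proteoglycan-cutting genes the highest value was 2.7 FPKM for Adamts15, 1.65 FPKM for Adamts4, 0.0487 FPKM for Adamts8 and 0.0468 FPKM for Adamts20. It was 0.655 FPKM for Adamts12 and 0.738 FPKM for Adamts3. Among the ADAMTS genes of other groups it was 0.582 FPKM for Adamts17, 0.471 FPKM for Adamts6 and 0.248 FPKM for Adamts18, and Adamtsl1 reached 0.585 FPKM. With no filter on low values 20 of the 24 could be tested, and 1 was called: Adamtsl2, a microfibril-associated protein gene, was at 0.0532, 0.181 and 0.259 FPKM in Cbx2-/- replicates 1 to 3, against 1.02, 0.832 and 0.531 FPKM in wild-type replicates 1 to 3 (difference -0.62 ± 0.12, log2, SE, limma adjusted p = 0.0283 in that fit). Every Cbx2-/- value of Adamtsl2 lay below every wild-type value.

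Cbx2-/- replicate 3 stood apart from the other Cbx2-/- libraries in many members. In 9 of the 27 tested genes its FPKM was at least 2 times the mean of replicates 1 and 2 (Adamts1, Adamts7, Adamts10, Adamts13, Adamts14, Mmp2, Mmp11, Mmp13 and Timp3), where this held for 5.36% of all tested genes. The limit of 2 times was chosen after these values were seen. Timp3 was at 69.8 FPKM in replicate 3 and averaged 20 FPKM in replicates 1 and 2. Adamts14 was at 6.7 FPKM in replicate 3 and averaged 1.62 FPKM in the others, and the untested Adamts15 was at 2.7 FPKM in replicate 3 and averaged 0.612 FPKM in the others. Replicate 3 divided by that mean was 0.925 for Timp1, 1.05 for Timp4, 1.06 for Mmp9, 1.09 for Mmp25 and 0.942 for Mmp16.

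By known source, the osteoclast list (Mmp9 and Mmp14) had 1 of 2 tested genes higher, and the macrophage list (Mmp12, Mmp14, Mmp19 and Mmp27) had 0 of 2 tested genes called. The osteoblast and chondrocyte list (Mmp13, Mmp14, Mmp16 and Adamts5) had 1 of 4 lower, and the list of stroma and fibroblasts, 13 genes that include Timp1, Timp2 and Timp3 but not Timp4, had 2 of 11 tested lower (Mmp2 and Timp1). For comparison, 17.1% of all tested genes were called, near the 18.2% of the tested genes of the stroma and fibroblast list. These lists are short and share genes with each other. Marker sums differed between the Cbx2-/- libraries too. The 12 osteoclast markers summed to 739 FPKM in replicate 3 and to 530.1 and 458 FPKM in replicates 1 and 2, and the 9 endothelial markers summed to 169.9 FPKM in replicate 3 and to 142 and 127 FPKM in replicates 1 and 2. The 12 osteoblast markers summed to 1914 FPKM in replicate 3 and to 1054 and 1489 FPKM in replicates 1 and 2. The 10 marrow stromal markers were lowest of the Cbx2-/- libraries in replicate 3, at 659.7 FPKM, and summed to 721 and 1172 FPKM in replicates 1 and 2. The macrophage list, with 10 of its 11 genes in the table, summed to 836 to 1249 FPKM in Cbx2-/- and 589 to 683 FPKM in wild-type marrow, and 4 rose; without Cbx2-/- replicate 1, 2 or 3 the number that rose was 2, 5 and 6, and without wild-type replicate 1, 2 or 3 it was 1, 3 and 1. The part of these cell types in the spread of the members was not tested.

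**Figure D5:**
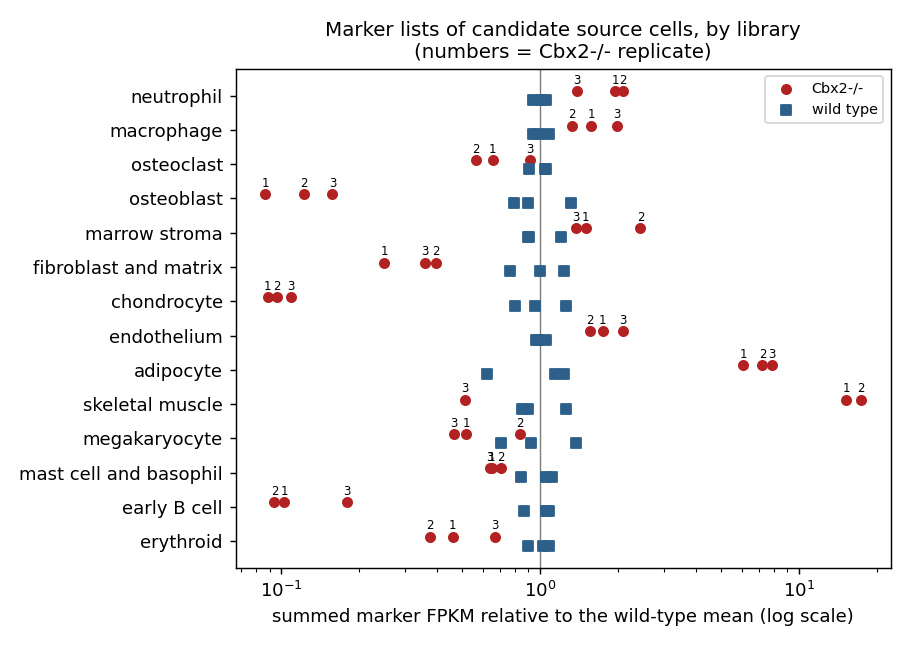
Summed FPKM of 14 marker lists in each library, divided by the wild-type mean, on a log axis (circles with replicate number, Cbx2-/-; squares, wild type). Adipocyte sums were higher and osteoblast, fibroblast, chondrocyte and early B cell sums lower in all Cbx2-/- libraries, while the muscle sum was high only in Cbx2-/- replicates 1 and 2.

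The genes that work with these proteases were read from 5 lists of 59 genes, of which 48 were tested, 8 rose and 14 fell (17.1% of all tested genes were called). Among those that fell, Bcan and Fbn2 passed the filter on low values only through wild-type libraries. They had to differ in this direction and lend the counts no support. Of 6 tested activators, 2 rose and 1 fell. Plau, the urokinase that generates plasmin, was at 9.89, 7.85 and 14.7 FPKM in Cbx2-/- replicates 1 to 3, against 3.29, 4.53 and 3.98 FPKM in wild-type replicates 1 to 3 (limma adjusted p = 0.00943). Its receptor gene Plaur was at 75.7, 63.3 and 70.1 FPKM in Cbx2-/- replicates 1 to 3, against 34.2, 39.2 and 37.2 FPKM in wild-type replicates 1 to 3 (limma adjusted p = 0.0072). Pcsk6, a proprotein convertase, was lower, at 4.21, 4.87 and 3.57 FPKM in Cbx2-/- replicates 1 to 3, against 8.67, 11.8 and 7.02 FPKM in wild-type replicates 1 to 3 (limma adjusted p = 0.0155). None of these 3 genes overlapped between the groups. Over all 5 lists, the number called was 14 without Cbx2-/- replicate 1 and 12, 14 and 13 without wild-type replicates 1, 2 and 3. Of the genes named from these lists, Reck, Lrp1, Lcn2, Bsg and Adam12 lost their call without 4 of the 6 single libraries. Pcsk6 lost its call without 3 of them and Adam8 without 2. The highest limma adjusted p-values of these genes were, in that order, 0.0783, 0.11, 0.121, 0.135, 0.104, 0.0603 and 0.066. Adam10, Kitl and Fn1 lost their call without 5, 2 and 4 of them, with highest limma adjusted p-values of 0.132, 0.0681 and 0.154.

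Of 8 tested genes of other inhibitors and clearance, 2 rose and 1 fell. Single libraries were left out in the order Cbx2-/- replicates 1 to 3 and wild-type replicates 1 to 3. The number that rose was then 0, 3, 2, 0, 0 and 0, and 1 fell each time. Reck, a membrane-anchored MMP inhibitor, was at 4.11, 4.1 and 3.69 FPKM in Cbx2-/- replicates 1 to 3, against 2.5, 2.39 and 2.09 FPKM in wild-type replicates 1 to 3, 1.71-fold higher (limma adjusted p = 0.0184). Lrp1, the receptor that takes up protease and inhibitor complexes, was at 23.3, 15.8 and 27.2 FPKM in Cbx2-/- replicates 1 to 3, against 10.9, 12.3 and 11.8 FPKM in wild-type replicates 1 to 3 (limma adjusted p = 0.027). Serpinh1, which despite its serpin fold is a chaperone of procollagen and not a protease inhibitor, was lower, at 37.4, 82.7 and 32.4 FPKM in Cbx2-/- replicates 1 to 3, against 227, 274 and 202 FPKM in wild-type replicates 1 to 3 (limma adjusted p = 0.00478). Of 8 inducers and binding partners, 1 rose and 1 fell. In the same order of left-out libraries, the number that rose was 0, 1, 2, 0, 0 and 0. The number that fell was the same in each of these fits. Lcn2, whose product binds MMP9 in neutrophil granules, was 2.19-fold higher, averaging 3666 ± 871 FPKM in Cbx2-/- and 1677 ± 94.9 FPKM in wild-type marrow (SD, n = 3 each, limma adjusted p = 0.0249). Bsg, the MMP inducer basigin, also abundant on red cells, was 2.07-fold lower, averaging 268 ± 98.4 FPKM in Cbx2-/- and 553 ± 46.7 FPKM in wild-type marrow (SD, n = 3 each, limma adjusted p = 0.0351).

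Of 10 tested ADAM, astacin and related protease genes, 1 rose and 4 fell. Without single libraries, in the order Cbx2-/- replicates 1 to 3 and wild-type replicates 1 to 3, the number that rose was 1, 2, 2, 0, 1 and 0 and the number that fell was 2, 3, 6, 2, 2 and 2. Adam10, a widely expressed sheddase, was 1.5-fold lower (limma adjusted p = 0.0304) and lost its call without 5 of the 6 single libraries. Htra1, a secreted serine protease, was 2.56-fold lower, and Bmp1, which removes the C-propeptides of procollagens, was 2.45-fold lower (limma adjusted p = 0.0024 and 0.00387). Adam8, a leukocyte and osteoclast sheddase, was 2.06-fold higher, at 34.2, 34.6 and 50.2 FPKM in Cbx2-/- replicates 1 to 3, against 17.7, 22.5 and 17.6 FPKM in wild-type replicates 1 to 3 (limma adjusted p = 0.0132). Adam12, a mesenchymal protease, was 2.54-fold lower (limma adjusted p = 0.0255).

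Of 16 tested substrates and cofactors, 2 rose and 7 fell. The 2 that rose were Kitl, the Kit ligand that MMP9 can release, and Fn1, fibronectin (2.09-fold higher and 2.49-fold higher, limma adjusted p = 0.0142 and 0.0493). Without single libraries, in the order Cbx2-/- replicates 1 to 3 and wild-type replicates 1 to 3, the number that rose was 1, 3, 4, 0, 1 and 0, and the number that fell stayed at 7. Col1a1 and Col1a2, the chains of type I collagen, averaged 634 ± 129.9 FPKM in Cbx2-/- and 6085 ± 1874 FPKM in wild-type marrow for Col1a1 and 591 ± 232 FPKM in Cbx2-/- and 3920.0 ± 1112 FPKM in wild-type marrow for Col1a2 (SD, n = 3 each, limma adjusted p = 0.000898 and 0.00272). Col2a1, the collagen of cartilage, was 10.2-fold lower (limma adjusted p = 0.00147). Bcan, a proteoglycan cut by ADAMTS4, was at 0.117, 0.39 and 0.0318 FPKM in Cbx2-/- replicates 1 to 3, against 1.76, 1.7 and 2.01 FPKM in wild-type replicates 1 to 3 (limma adjusted p = 0.00284), all at low levels. Bcan and Fbn2, which also fell, passed the filter on low values only through wild-type libraries, so their direction was fixed. Col1a1 and Col1a2 are also in the osteoblast marker list given above, and Col2a1 in the chondrocyte list.

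Summed over each class, the 23 MMP genes gave 637, 553 and 827 FPKM in Cbx2-/- replicates 1 to 3 and 467, 521 and 468 FPKM in wild-type replicates 1 to 3, with no overlap. The ratio of summed MMP to summed TIMP FPKM was 8.35, 7.97 and 5.98 in Cbx2-/- and 6.81, 6.99 and 7.41 in wild-type libraries, and here the groups overlapped. The 19 ADAMTS genes summed to 31.8, 32 and 70.2 FPKM in Cbx2-/- and 36.3, 42.1 and 38.8 FPKM in wild-type libraries, with replicate 3 of the Cbx2-/- group apart from the rest. The 5 ADAMTSL genes summed to 5.31, 4.34 and 7.35 FPKM in Cbx2-/- and 3.24, 2.5 and 2.66 FPKM in wild-type libraries, with no overlap. These sums are descriptions, and the MMP sum is mostly Mmp9 and Mmp8.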

How the data were processed

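The authors deposited FPKM values of 22838 genes for 6 libraries; no read counts were used here. Stranded poly(A) libraries were sequenced from 1 end for 50 bases on an Illumina HiSeq 1000, per the labels. The submitters' processing notes list Cufflinks 2.2.1, TopHat2 2.1.0 and FastQC 0.11.5 with mm10 as the build, but no roles or settings. The 12 columns of confidence limits gave no interval and were not used. FPKM is relative: a value falls when other transcripts take more of the reads.

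The 12006 genes that reached 1 FPKM in 3 or more libraries were compared as log2(FPKM + 1) with limma 3.58.1 in R 4.3.3 (mean-variance trend, two-sided, no covariate), and p-values were adjusted by Benjamini-Hochberg across these genes. This scale understates changes of low genes. Each fold divides mean FPKM of the groups; errors are SD over 3 libraries unless named SE. The procedure was tested on simulated data. The members, gene lists, alternatives and naming rule were chosen with earlier results of these data known. The rule names every tested member, with values per library for those called or with a mean of at least 5 FPKM, untested members by their highest value, and up to 4 called genes of each list with the lowest adjusted p. Adamtsl2, the synapsins, the single marker genes, Kitl, Fn1 and Adam10 were given values after their values were seen. Markers were summed as FPKM; the mast cell and megakaryocyte sums are only plotted. Positions are from GENCODE vM21 and start regions from RefSeq. Figures were drawn with matplotlib 3.10.9.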

Additional observations from a re-analysis of the deposited data

How the results depend on the processing

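Leaving out 1 library at a time gave 849 to 3788 called genes against 2055, 2 to 7 members called higher against 5, 2 to 7 called lower against 4, and 12 to 30 genes of the 5 lists against 22. With array weights in limma, 5962 genes, 9 higher and 8 lower members and 38 list genes were called. With Cbx2-/- replicates 1 and 2 left out, 4761 genes and 11 higher members were called. A filter at a mean of 5 FPKM, which tests 14 members, left 3 higher and 2 lower. Timp1 and Timp4 were called in all 15 alternatives, and Mmp16 and Adamtsl3 in all 14 that tested them. The filter on low values had fixed the direction of Mmp16 and Adamtsl3 in all of these except the fit without that filter. The replicate numbers did not pair the samples (correlation of deviations 0.194, -0.179 and -0.103 for replicates 1, 2 and 3); with the replicate block, 1368 genes were called, 4 members higher and 4 lower, and Mmp9 was lost (limma adjusted p = 0.0881).

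Of 392 values of members under alternatives, 338 kept direction and side of the threshold, 20 lost the call, 21 gained it and 13 turned round, all of them in genes that did not pass. With array weights, the difference was -0.13 for Adamts10, -0.029 for Adamts14 and -0.12 for Mmp17. With Cbx2-/- replicates 1 and 2 left out it was 0.46 for Adamts13 and 0.66 for Mmp13. Leaving out 1 library gave -0.14 to 0.40 for Adamts10, -0.092 to 0.71 for Adamts14, -0.54 to 0.079 for Adamts9, -0.86 to 0.16 for Mmp13, -0.034 to 0.40 for Mmp17 and -0.36 to 0.20 for Mmp23. The cause was not tested. No scaling moved the median of all genes by more than 0.1. FPKM carries no counts, so depth limits the members under 1 FPKM in a way that could not be quantified.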
